A study of Arabidopsis thaliana with 32 samples.

Results

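The response of dark-grown Arabidopsis thaliana seedlings to 4 h of light was compared between a line that expresses a repressing form of HY5 and the hy5 mutant. The comparison is an interaction: the change between dark and 4 h in the line, minus the same change in hy5, taken for every gene of the table. It uses 9 of the 32 libraries of the series. They are SRDX at 4 h (2 libraries), SRDX in the dark (2), hy5 at 4 h (2) and hy5 in the dark (3). Here SRDX stands for 35S:FLASH-HY5-SRDX (hy5/hy5). Both genotypes are in the Columbia ecotype and homozygous for hy5, so the transgene is what sets them apart by label. Every group received 1 h of white light for germination and 3 days of darkness at 21 °C, and the 4 h groups were then exposed to simulated white light of 100 µmol m−2 s−1. Each library holds the polyadenylated RNA of about 40 pooled whole seedlings. The hy5 allele and the number of independent transgenic lines are not given in the labels. The 35S promoter drives it in most tissues rather than where HY5 is normally made. Both genotypes also have libraries after 1.5 h of light (2 for SRDX, 3 for hy5), which serve to place the interaction in time. The series holds no wild type libraries at 4 h.

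HY5 is a bZIP transcription factor that promotes the switch from growth in the dark to growth in the light. In darkness the ubiquitin ligase built from COP1 and the SPA proteins marks it for degradation, and in light photoreceptors inhibit that ligase, so that HY5 accumulates and binds promoters at elements with the core ACGT, such as the G-box CACGTG. SRDX is a short motif of the EAR type that recruits corepressors, and a transcription factor fused to it tends to shut down the genes it binds. De-etiolation in Arabidopsis includes the start of chlorophyll and carotenoid synthesis, the assembly of photosystems, protection against excess light and a brake on hypocotyl elongation.

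Depth over the 19685 listed genes lay between 8690002 and 15164664 reads per library. A single read was worth 0.0649 to 0.110 CPM, the unit of the authors' scaled values. Replicates differed by 3.36 to 21.7 times the variance that counting alone gives, and the hy5 pair at 4 h differed most. The labels do not say whether the libraries of a group came from separate sowings, so the spread between libraries may be technical. The limma p-values below use a spread pooled over all 32 libraries of the series. The hy5 pair at 4 h is thus not judged by its own spread alone. On the first principal component, which held 74.0% of the variance and separated light from dark, the SRDX libraries at 4 h lay at 44.6 and 44.0 and the hy5 libraries at 4 h at 67.5 and 56.1, while the 5 dark libraries lay between -44.8 and -38.3. Genes of the mitochondrial genome took 0.0523 to 0.208% of the signal and genes of the chloroplast genome 0.182 to 0.780%. Of 3 green tissue markers, RBCS1A, which encodes a small subunit of Rubisco, averaged 7826 CPM in SRDX at 4 h, 5555 CPM in dark SRDX, 7499 CPM in hy5 at 4 h and 5685 CPM in dark hy5. The antenna protein gene LHCB1.1 averaged 1063 CPM in SRDX at 4 h, 4.04 CPM in dark SRDX, 1445 CPM in hy5 at 4 h and 4.61 CPM in dark hy5, and LHCB2.1, of the same family, 607 CPM in SRDX at 4 h, 33.7 CPM in dark SRDX, 1016 CPM in hy5 at 4 h and 65.9 CPM in dark hy5. RBCS1A was thus abundant in every group and the antenna genes mainly at 4 h, where they were lower in SRDX. LHCB2.1 was lower in SRDX in the dark as well, at 30.5 to 36.8 CPM against 54.5 to 79.7 CPM in dark hy5. Of 3 endodermis markers, CASP1, a Casparian strip protein, averaged 125 CPM in SRDX at 4 h, 91.1 CPM in dark SRDX, 141 CPM in hy5 at 4 h and 177 CPM in dark hy5. CASP2, of the same family, averaged 53.6 CPM in SRDX at 4 h, 50.6 CPM in dark SRDX, 69.5 CPM in hy5 at 4 h and 70 CPM in dark hy5, and the regulator MYB36 11.7 CPM in SRDX at 4 h, 21 CPM in dark SRDX, 16.4 CPM in hy5 at 4 h and 16.1 CPM in dark hy5. In the dark CASP1 and CASP2 were lower and MYB36 was higher in SRDX than in hy5, and with light CASP1 went up and MYB36 down in SRDX. The root hair markers EXPA7, LRX1 and RHS19 averaged at most 2.42 CPM in any of the 4 groups. LRX1 averaged 2.23 CPM in SRDX at 4 h, 0.0918 CPM in dark SRDX, 2.42 CPM in hy5 at 4 h and 2.01 CPM in dark hy5. In the same order EXPA7 averaged 0.465, 0.055, 0.52 and 0.525 CPM, and RHS19 1.53, 0.532, 0.527 and 0.787 CPM. In the dark the means of these markers were lower in SRDX than in hy5.

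HY5 itself (AT5G11260) had 908 and 925 CPM in SRDX at 4 h and 1082 and 969 CPM in dark SRDX. In hy5 HY5 had 85.4 and 79.1 CPM at 4 h and 21.4, 19.4 and 24.4 CPM in the dark. In SRDX the transgene and the mutant locus both give reads of HY5, and every SRDX library lay far above every hy5 library. The mutant locus was still transcribed and rose with light in hy5 (1.88 ± 0.14, adjusted p = 2.3e-12), on the scale of log2(CPM + 1) used for all differences below, with the standard error of the limma fit. The change in SRDX did not pass the same test (-0.16 ± 0.15, adjusted p = 0.41), and the interaction of HY5 was -2.04 ± 0.21, adjusted p = 1.2e-07. HYH (AT3G17609), the closest homologue of HY5, had 19.2 and 22.4 CPM in SRDX at 4 h and 0.295 and 0 CPM in dark SRDX. In hy5 HYH had 63.7 and 46 CPM at 4 h and 0.154, 0.727 and 0.166 CPM in the dark. It rose in both genotypes and the groups at 4 h did not overlap, with a lower level in SRDX (-1.34 ± 0.19, adjusted p = 3.4e-06). Its interaction was -1.12 ± 0.25, adjusted p = 0.0044 on the scale that adds 1 CPM, but -0.5, adjusted p = 0.84 by edgeR and -0.47, adjusted p = 0.8 by DESeq2 on reads, which compare ratios, so for HYH the smaller rise of SRDX depends on the scale.

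A gene is called higher or lower where its limma p, adjusted by Benjamini-Hochberg over all 19685 genes, is below 0.05. By this rule 854 genes had a higher interaction and 1129 a lower one, together 10.1% of the genes tested, and 380 and 282 of them passed a fold of at least 2. A lower interaction means that the level in SRDX rose less, or fell more, over 4 h of light than that in hy5. The calls were made on the same 4 group means, and a lower call favours a highest mean in hy5 at 4 h or dark SRDX. The shares that follow therefore describe the called genes and test nothing. Of the 4 groups, hy5 at 4 h held the highest mean in 804 of the 1129 lower genes (71.2%), and in 29.4% of all genes. Their median change between dark and 4 h was -0.06 in SRDX and 0.68 in hy5. The lowest mean lay in dark hy5 for 544 of them (48.2%), against 21.2% of all genes. It lay in SRDX at 4 h for 440 (39.0%), against 23.3% of all genes. Dark SRDX held the highest mean in 301 (26.7%), near its share of all genes (27.8%). Part of the 1129 genes, among them the 440 lowest in SRDX at 4 h, had a lower mean in SRDX at 4 h than in dark SRDX. Among the 854 higher genes the highest mean lay in SRDX at 4 h for 439 (51.4%), against 19.9% of all genes. It lay in dark hy5 for 360 (42.2%), against 22.9% of all genes. The lowest mean lay in hy5 at 4 h for 541 of them (63.3%) and in dark SRDX for 239 (28.0%), against 30.0% and 25.6% of all genes. Their median change was 0.35 in SRDX and -0.53 in hy5. Without SRDX 4 h library 1 the count of calls was 1242 and without SRDX 4 h library 2 it was 1171, and 661 genes (264 higher and 397 lower) were called with the same sign in each of the 9 fits that left out a library. Of the higher and the lower calls, 709 (83.0%) and 868 (76.9%) were also made by edgeR on the recovered reads, and 669 (78.3%) and 949 (84.1%) by DESeq2. In the authors' deposited table, the SRDX to hy5 difference at 4 h minus that in the dark had the same sign as the interaction in 1973 of the 1983 called genes. That table covers the same samples, so the shared sign is a check of the calculation and not separate support.

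**Figure D1:**
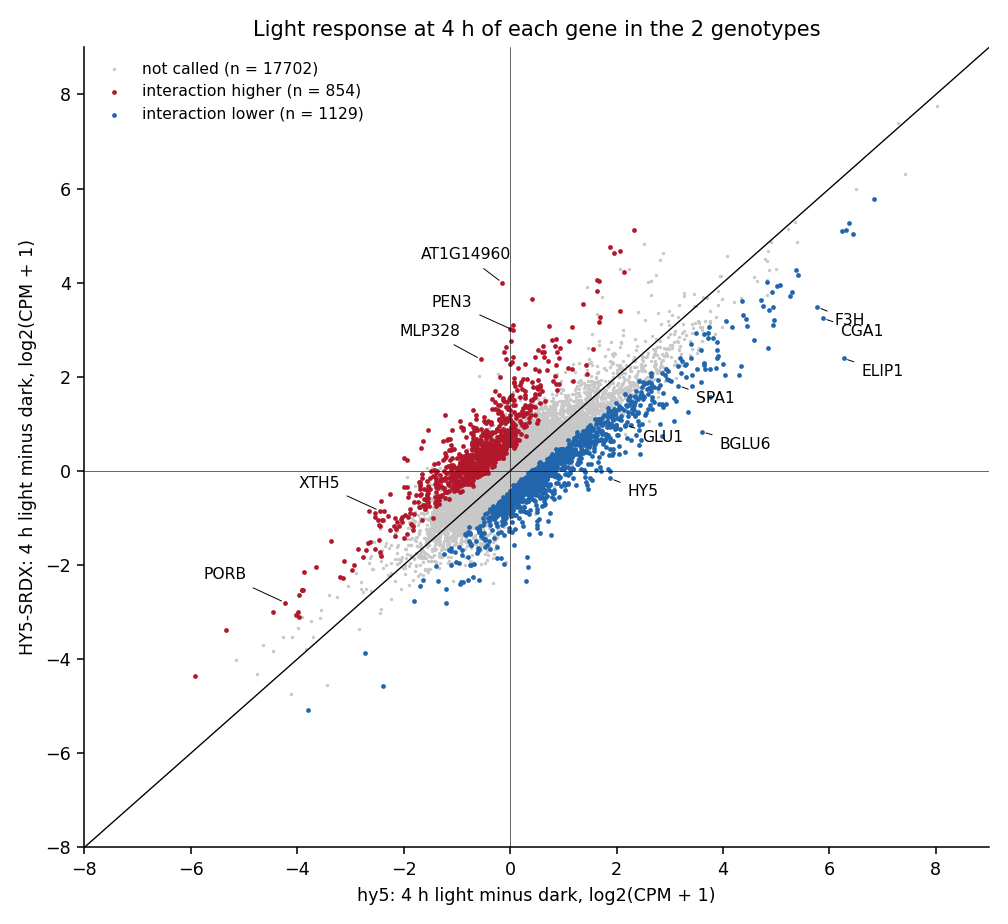
Change between dark and 4 h of light of each gene, in log2(CPM + 1), in SRDX (vertical axis) against hy5 (horizontal axis), with called interactions in colour and the line of equal response in black. ELIP1 lies at 2.39 in SRDX and 6.27 in hy5, far below the line, and AT1G14960 at 4.0 in SRDX and -0.15 in hy5, far above it.

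**Figure D2:**
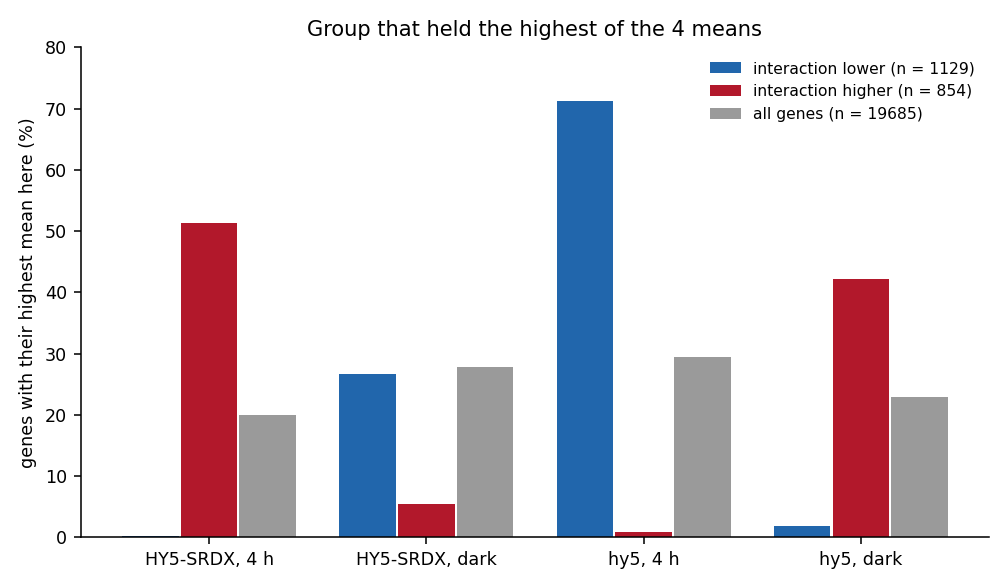
Share of genes, in percent, whose highest mean lay in each of the 4 groups, for genes with a lower interaction (blue), with a higher interaction (red) and for all genes (grey). For the lower genes the bar of hy5 at 4 h reaches 71.2%, against 29.4% for all genes. The genes were called on these same means, so the bars are no separate test.

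The lowest interaction among genes called in every one of these fits was that of ELIP1 (AT3G22840), an early light-induced protein that binds pigments in stressed or greening thylakoids. ELIP1 had 10 and 14.9 CPM in SRDX at 4 h and 1.33 and 1.76 CPM in dark SRDX. In hy5 ELIP1 had 336 and 343 CPM at 4 h and 2.84, 3.36 and 4.14 CPM in the dark. Light raised it in both genotypes, but the hy5 libraries at 4 h stood far above both SRDX libraries, and the interaction was -3.88 ± 0.58, adjusted p = 6e-05. The next was BGLU6 (AT1G60270), a beta-glucosidase family member tied to flavonol glycosylation, with 2.28 and 1.43 CPM in SRDX at 4 h and 0.515 and 0.66 CPM in dark SRDX. In hy5 BGLU6 had 17.5 and 17.8 CPM at 4 h and 0.384, 0.818 and 0.414 CPM in the dark (interaction -2.78 ± 0.24, adjusted p = 5.8e-09). Its 4 h groups did not overlap, while the dark groups did. CGA1 (AT4G26150), a GATA factor that promotes chloroplast development, had 9.27 and 11.2 CPM in SRDX at 4 h and 0.147 and 0.22 CPM in dark SRDX. In hy5 CGA1 had 72.8 and 46 CPM at 4 h and 0, 0 and 0 CPM in the dark. It was at 0 reads in all dark hy5 libraries and reached the highest levels in hy5 at 4 h, so its interaction of -2.64 ± 0.44 depends on the added 1 CPM and is given with no fold. By edgeR the adjusted p of CGA1 was 0.16 and by DESeq2 0.004. F3H (AT3G51240), the flavanone 3-hydroxylase of flavonoid synthesis, had 13.2 and 13.1 CPM in SRDX at 4 h and 0.221 and 0.33 CPM in dark SRDX. In hy5 F3H had 97.3 and 101 CPM at 4 h and 0.768, 1.09 and 0.663 CPM in the dark. At 4 h it was lower in both SRDX libraries than in both hy5 libraries, but dark SRDX also lay below dark hy5, and the interaction of -2.3 ± 0.32, adjusted p = 2.5e-05 became -1.28, adjusted p = 0.46 by edgeR and -1.27, adjusted p = 0.27 by DESeq2.

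The other lowest genes covered several kinds of metabolism. Those induced in hy5 and less so in SRDX were scpl10 (AT2G23000), a serine carboxypeptidase-like protein (-2.27), SQP1 (AT5G24150), a squalene monooxygenase-like protein (-2.23), AT3G28160, which is uncharacterised (-2.2), and AT2G34810, a berberine bridge enzyme-like oxidase (-2.12). SQP1 was also higher in dark SRDX than in dark hy5 (1.44 ± 0.26, adjusted p = 0.00048). Its difference between SRDX and hy5 at 4 h was not called (-0.79 ± 0.29, adjusted p = 0.059). The oxidase AT2G34810 had 3.16 and 4.35 CPM in SRDX at 4 h and 2.14 and 1.54 CPM in dark SRDX. In hy5 AT2G34810 had 14.8 and 22.2 CPM at 4 h and 1.69, 2.18 and 1.16 CPM in the dark, so that the groups differed at 4 h and overlapped in the dark. GulLO2 (AT2G46750), annotated as a sugar lactone oxidase, differed from these. GulLO2 had 9.81 and 10.2 CPM in SRDX at 4 h and 47.6 and 41.7 CPM in dark SRDX. In hy5 GulLO2 had 28.6 and 32.9 CPM at 4 h and 20.1, 27.2 and 26.1 CPM in the dark. Light lowered it in SRDX (-2.05 ± 0.17, adjusted p = 8.9e-11) and the change in hy5 did not pass the test (0.33 ± 0.16, adjusted p = 0.088), with an interaction of -2.38 ± 0.24. ADPG2 (AT2G41850), a polygalacturonase active in cell separation, had 34.7 and 15.6 CPM in SRDX at 4 h and 50.4 and 75.6 CPM in dark SRDX. In hy5 ADPG2 had 114 and 107 CPM at 4 h and 49.7, 66.4 and 81.1 CPM in the dark (interaction -2.13 ± 0.42, adjusted p = 0.0015). CYP82C2 (AT4G31970), a cytochrome P450 of indolic defence compounds, was expressed almost only in SRDX, at 34.3 and 27.9 CPM at 4 h and 183 and 140.3 CPM in the dark, against 0.357 and 0.961 CPM at 4 h and 0.0768, 0.636 and 0.332 CPM in the dark in hy5. Light lowered CYP82C2 in SRDX (-2.34 ± 0.24, adjusted p = 4.3e-09), and the interaction was -2.63 ± 0.33, adjusted p = 3.7e-06. THA1 (AT1G08630), a threonine aldolase, fell in both genotypes and further in SRDX, with 2.82 and 2.27 CPM in SRDX at 4 h and 109 and 63.8 CPM in dark SRDX. In hy5 THA1 had 5 and 10.1 CPM at 4 h and 34.2, 45.5 and 46.6 CPM in the dark (interaction -2.19 ± 0.4, adjusted p = 0.00067). Of these, scpl10 was called by DESeq2 but not by edgeR (adjusted p = 0.089), and AT3G28160 by neither (adjusted p = 0.44 by edgeR and 0.35 by DESeq2).

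The 250 bases before the annotated start were read from the TAIR10.1 genome for measured nuclear genes, to show where the G-box CACGTG, a known target of HY5, lies in the genes at the extremes. CACGTG reads the same on both strands and contains ACGT. It was found in 10.8% of 1127 lower genes, 9.76% of 850 higher genes and 7.59% of all 19378 genes with such a window, and ACGT in 52.8%, 47.2% and 44.7% of them. Of the 12 lowest genes 11 had a window and 4 held CACGTG, and of the 12 highest genes 3 held it, which are AT5G35660, AT1G04560 and AT1G27461. The windows of the 4 lowest genes with the motif and of AT1G04560, the highest gene with more than 1 copy, follow 5′ to 3′ on the strand of the gene, in lower case with CACGTG and ACGT in capitals. The motif begins at -66 from the annotated start in ELIP1 (chr3:8085670-8085919, minus strand), at -56 in BGLU6 (chr1:22224359-22224608, minus strand), at -249 in F3H (chr3:19024942-19025191, plus strand), at -36 in scpl10 (chr2:9791916-9792165, plus strand), and at -106 and -54 in AT1G04560 (chr1:1244697-1244946, plus strand). A match is a description of these letters and not evidence of binding.
ELIP1: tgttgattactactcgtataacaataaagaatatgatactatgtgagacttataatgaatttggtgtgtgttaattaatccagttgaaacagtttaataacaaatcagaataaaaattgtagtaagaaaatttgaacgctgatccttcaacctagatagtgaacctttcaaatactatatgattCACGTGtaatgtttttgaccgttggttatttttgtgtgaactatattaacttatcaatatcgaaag
BGLU6: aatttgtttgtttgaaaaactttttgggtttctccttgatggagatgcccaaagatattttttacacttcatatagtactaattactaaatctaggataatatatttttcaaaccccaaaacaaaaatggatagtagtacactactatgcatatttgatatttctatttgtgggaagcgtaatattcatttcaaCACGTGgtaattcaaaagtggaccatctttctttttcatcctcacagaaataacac
F3H: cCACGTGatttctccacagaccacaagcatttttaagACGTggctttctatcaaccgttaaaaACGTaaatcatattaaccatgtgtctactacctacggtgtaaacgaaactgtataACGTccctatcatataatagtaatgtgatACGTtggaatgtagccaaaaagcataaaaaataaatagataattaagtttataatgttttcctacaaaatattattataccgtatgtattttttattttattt
scpl10: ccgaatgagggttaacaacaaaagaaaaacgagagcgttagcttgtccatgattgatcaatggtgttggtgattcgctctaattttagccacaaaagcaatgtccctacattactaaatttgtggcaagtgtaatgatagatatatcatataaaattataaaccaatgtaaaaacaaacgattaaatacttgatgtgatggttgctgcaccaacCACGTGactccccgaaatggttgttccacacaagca
AT1G04560: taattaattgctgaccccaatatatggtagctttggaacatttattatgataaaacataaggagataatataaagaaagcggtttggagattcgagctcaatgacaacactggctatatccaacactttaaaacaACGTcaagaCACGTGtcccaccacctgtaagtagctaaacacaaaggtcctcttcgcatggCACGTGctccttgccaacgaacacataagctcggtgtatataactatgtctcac

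Of 29 measured light signalling regulators, 13 had a lower interaction and 1 a higher one, where 5.74% and 4.34% of all genes did. The lower members include HY5, whose reads in SRDX are mostly those of the transgene, and HYH. The list's median was -0.51 against -0.01 over all genes. Without SRDX 4 h library 1 or hy5 4 h library 2 there were 2 higher members, and edgeR called 3. All 4 SPA genes, which encode the partners of COP1, were lower, and so was COP1. SPA1 (AT2G46340) had 111 and 105 CPM in SRDX at 4 h and 30.2 and 29.6 CPM in dark SRDX. In hy5 SPA1 had 237 and 225 CPM at 4 h and 27.5, 26.5 and 21.4 CPM in the dark, so light raised it in both genotypes and the groups at 4 h lay apart (interaction -1.34 ± 0.19, adjusted p = 3.4e-05). SPA3 (AT3G15354) had 87.7 and 78.8 CPM in SRDX at 4 h against 147 and 154 CPM in hy5 at 4 h, where the dark groups overlapped (interaction -0.93 ± 0.21). SPA4 (AT1G53090) had 20.1 and 22.4 CPM against 43.4 and 56.3 CPM at 4 h (interaction -0.97 ± 0.24), and its call was lost without SRDX dark library 1 or hy5 4 h library 2. SPA2 (AT4G11110) had the interaction nearest 0 of the 4 (-0.59 ± 0.19), and its call was lost in 8 of the 9 fits that left out a library, all but that without hy5 dark library 1. COP1 (AT2G32950) had 44.9 and 46.5 CPM in SRDX at 4 h and 37.3 and 31.2 CPM in dark SRDX. In hy5 COP1 had 72.2 and 62.7 CPM at 4 h and 31.7, 31.7 and 29.7 CPM in the dark (interaction -0.68 ± 0.15, adjusted p = 0.0036).

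Among other regulators, PKS1 (AT2G02950), a phytochrome kinase substrate that acts in phototropism, had 11.8 and 14.5 CPM in SRDX at 4 h and 9.35 and 11.1 CPM in dark SRDX. In hy5 PKS1 had 35.3 and 37.3 CPM at 4 h and 9.98, 9.36 and 8.79 CPM in the dark. It rose in hy5 (1.85 ± 0.11, adjusted p = 1.3e-14) and less in SRDX (0.33 ± 0.12, adjusted p = 0.024), for an interaction of -1.52 ± 0.16, adjusted p = 2.5e-07. HFR1 (AT1G02340), a bHLH protein that promotes de-etiolation, fell in both genotypes and further in SRDX, with 13.9 and 14.1 CPM in SRDX at 4 h and 70.7 and 49.7 CPM in dark SRDX. In hy5 HFR1 had 27.8 and 34 CPM at 4 h and 51.8, 55 and 51.6 CPM in the dark (interaction -1.24 ± 0.2, adjusted p = 0.00014). RUP1 (AT5G52250), a brake on the UV-B receptor UVR8, had 3.9 and 5.19 CPM in SRDX at 4 h and 9.06 and 4.84 CPM in dark SRDX. In hy5 RUP1 had 18.1 and 20.5 CPM at 4 h and 11.2, 10 and 10.4 CPM in the dark, and its 4 h groups lay apart (interaction -1.29 ± 0.29, adjusted p = 0.0046), although the call was lost without SRDX dark library 1. The blue light receptor gene CRY1 (AT4G08920) had 139.8 and 129 CPM in SRDX at 4 h against 190 and 191 CPM in hy5 at 4 h (interaction -0.54 ± 0.12). PHYB (AT2G18790), which encodes the main red light receptor, had 112 and 112 CPM against 167 and 182 CPM at 4 h (interaction -0.51 ± 0.14), and FHY3 (AT3G22170), a transcription factor of phytochrome A signalling, an interaction of -0.56 ± 0.16. The call of PHYB was lost without SRDX 4 h library 1, SRDX 4 h library 2, SRDX dark library 2 or hy5 4 h library 2, and that of FHY3 without SRDX 4 h library 1, SRDX dark library 2 or hy5 4 h library 1. The higher member was ATHB2 (AT4G16780), a homeodomain factor known as a shade marker that light switches off. ATHB2 had 17.3 and 16.9 CPM in SRDX at 4 h and 83.2 and 87.6 CPM in dark SRDX. In hy5 ATHB2 had 9.99 and 8.65 CPM at 4 h and 98.1, 95 and 87.2 CPM in the dark, so it fell in both genotypes and stayed higher in SRDX at 4 h (interaction 0.94 ± 0.16, adjusted p = 0.00037).

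B-box proteins are zinc finger factors, several of which bind or act beside HY5. Of 21 measured, 7 had a lower interaction, against 5.74% of all genes, and the list's median was -0.62. By edgeR 4 were lower. The count was 3 without SRDX dark library 1, and 4 without hy5 4 h library 1. BBX18 (AT2G21320) had 34.3 and 34.1 CPM in SRDX at 4 h and 4.42 and 3.52 CPM in dark SRDX. In hy5 BBX18 had 64.2 and 61.8 CPM at 4 h and 3.92, 4.09 and 2.74 CPM in the dark (interaction -0.99 ± 0.22, adjusted p = 0.0046). Light raised it in both genotypes and the 4 h groups did not overlap. BBX31 (AT3G21890) and BBX32 (AT3G21150) were close to 0 in the dark in both genotypes. At 4 h BBX31 had 13.3 and 10.7 CPM in SRDX against 25.5 and 32.9 CPM in hy5, and BBX32 17.9 and 14.6 CPM against 28.7 and 36.4 CPM. Their interactions of -1.27 ± 0.28 and -1.09 ± 0.24 were called by neither edgeR (adjusted p = 0.46 and 0.23) nor DESeq2 (adjusted p = 0.43 and 0.15). BBX16 (AT1G73870) was at 0 in all dark libraries and had 2.35 and 1.17 CPM in SRDX at 4 h against 8.42 and 4.12 CPM in hy5 at 4 h. Its call, too, was made by neither read-based test (adjusted p = 1 by edgeR and 0.6 by DESeq2) and was lost without SRDX 4 h library 2, SRDX dark library 1, SRDX dark library 2 or hy5 4 h library 1. BBX22 (AT1G78600) had an interaction of -0.88 ± 0.22, BBX14 (AT1G68520) of -0.77 ± 0.23 and BBX15 (AT1G25440) of -0.67 ± 0.20. The call of BBX22 was lost without SRDX 4 h library 2, SRDX dark library 1 or hy5 4 h library 1, that of BBX14 without SRDX 4 h library 1, SRDX dark library 1, hy5 4 h library 2 or hy5 dark library 2, and that of BBX15 in 6 of the 9 fits, which were those without SRDX 4 h library 1, SRDX dark library 1, SRDX dark library 2, hy5 4 h library 1, hy5 dark library 2 or hy5 dark library 3. By edgeR BBX14 did not pass (adjusted p = 0.052).

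Genes of protection against light had the lowest median of the 24 lists, at -0.92, with 7 of 15 lower, against 5.74% of all genes. The count was 4 by edgeR. Besides ELIP1 these are OHP2, a one-helix thylakoid protein (-0.95), the cryptochrome-DASH photolyase gene CRY3 (-1.24), NPQ1, the violaxanthin de-epoxidase (-0.57), and SIG5 (AT5G24120), a plastid sigma factor that turns on the gene of a photosystem II core protein in stress and blue light. SIG5 had 17 and 16.5 CPM in SRDX at 4 h and 1.55 and 0.77 CPM in dark SRDX. In hy5 SIG5 had 72.9 and 78.4 CPM at 4 h and 2.61, 2.82 and 2.07 CPM in the dark, with every hy5 library at 4 h above both SRDX libraries at 4 h (interaction -1.39 ± 0.27, adjusted p = 0.0012), and the reads gave -1.14, adjusted p = 0.081 by edgeR and -1.15, adjusted p = 0.037 by DESeq2. GPX7 (AT4G31870), a plastid glutathione peroxidase, had 0.672 and 0.584 CPM in SRDX at 4 h against 5.07 and 4.6 CPM in hy5 at 4 h and 0 and 0.22 CPM in dark SRDX against 0.0768, 0.0909 and 0.0829 CPM in dark hy5 (interaction -1.87 ± 0.3). GPX7 was not called by edgeR (adjusted p = 0.26), and DESeq2 gave it no adjusted p. UVR3 (AT3G15620), a photolyase that repairs UV damage in DNA, fell in both genotypes and further in SRDX, with 0.672 and 1.75 CPM in SRDX at 4 h and 11.8 and 10.4 CPM in dark SRDX. In hy5 UVR3 had 1.5 and 1.85 CPM at 4 h and 4.84, 5.45 and 5.14 CPM in the dark, so that the groups lay apart in the dark and overlapped at 4 h (interaction -1.29 ± 0.26, adjusted p = 0.0021). Of 23 flavonoid and anthocyanin genes, 4 were lower and 1 was higher, where 5.74% and 4.34% of all genes were. By edgeR 1, PAL1, was lower. The lower count was 2 without SRDX 4 h library 1 or SRDX dark library 2, and the higher member was lost without SRDX 4 h library 1, SRDX 4 h library 2, SRDX dark library 2 or hy5 4 h library 1. The higher member was MYBL2 (1.0), a repressor of anthocyanin synthesis, and the lower ones besides F3H were UGT78D2, a glucosyltransferase (-1.05), C4H, the cinnamate 4-hydroxylase (-0.51), and PAL1. Members given here and below with their interaction alone were picked after their values were seen. PAL1 (AT2G37040), the entry enzyme of phenylpropanoid synthesis, had 155 and 165 CPM in SRDX at 4 h and 117 and 132 CPM in dark SRDX. In hy5 PAL1 had 226 and 235 CPM at 4 h and 113, 114 and 115 CPM in the dark (interaction -0.65 ± 0.14, adjusted p = 0.0036).

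**Figure D3:**
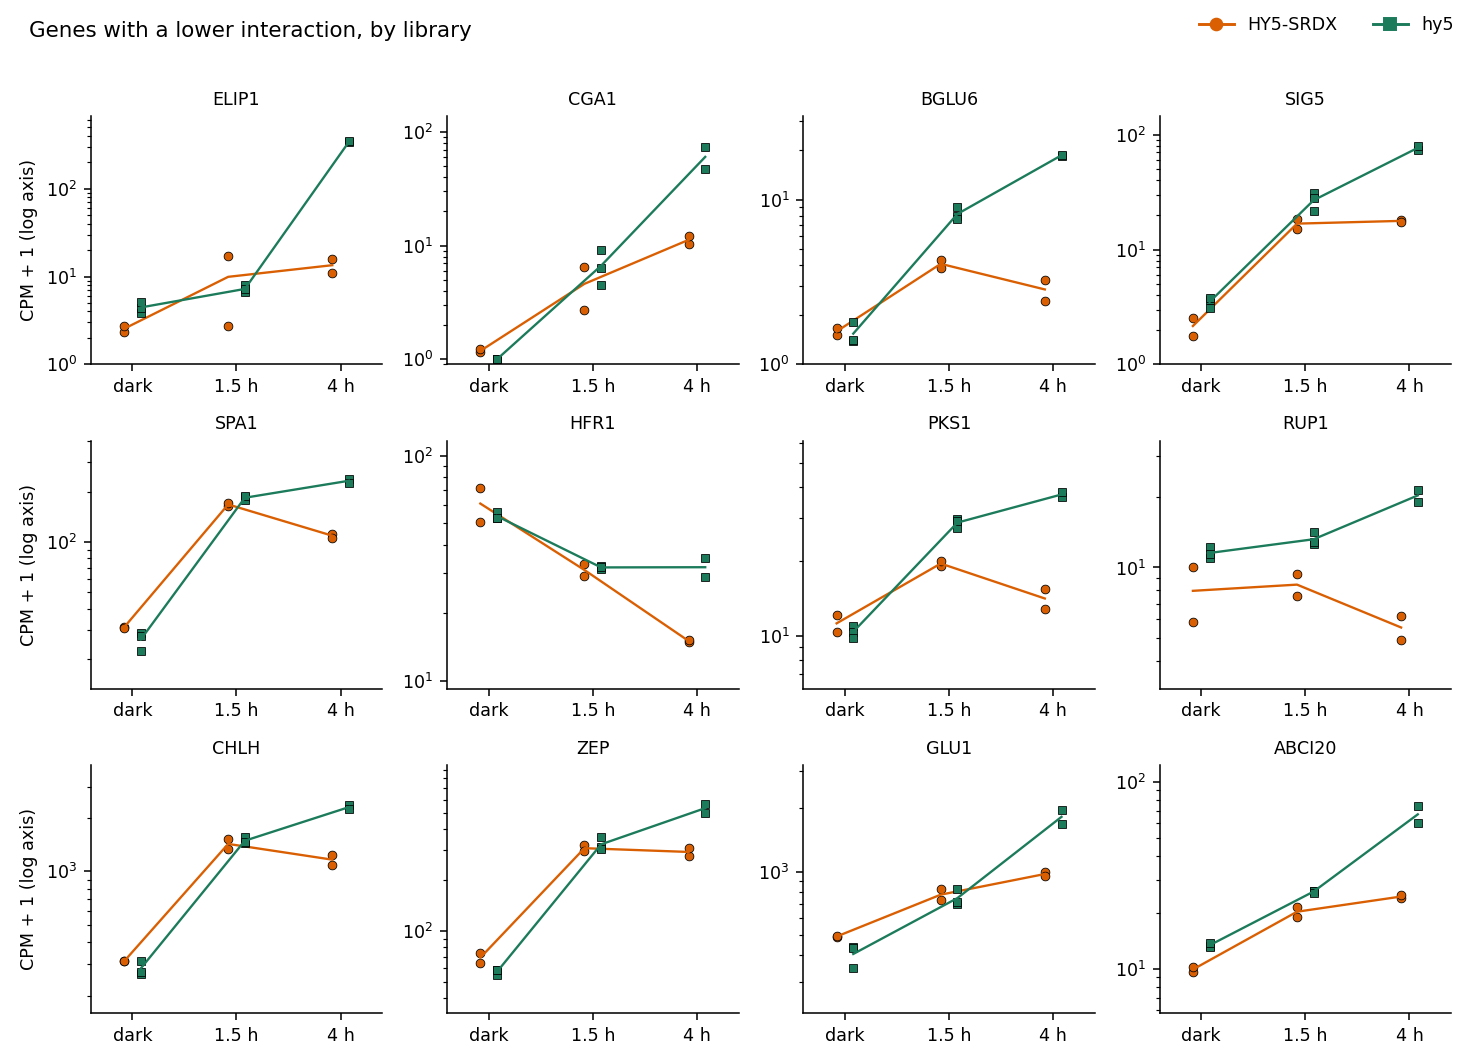
CPM + 1 on a log axis in each library, dark first and then 1.5 h and 4 h of light, for 12 genes with a lower interaction, in SRDX (orange circles) and hy5 (green squares), with lines through the means. In these panels both SRDX libraries lie below both hy5 libraries at 4 h, as for SPA1 at 111 and 105 CPM in SRDX and 237 and 225 CPM in hy5. The genes were picked among those called with these libraries, so the gap is favoured by the choice. UVR3, also called lower but not drawn, overlapped at 4 h.

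Genes of pigment synthesis were called in both directions. In the carotenoid list 8 of 15 members were lower, against 5.74% of all genes (median -0.49), and 4 were lower without SRDX dark library 2. ZEP (AT5G67030), the zeaxanthin epoxidase, had 277 and 308 CPM in SRDX at 4 h and 72.9 and 63.9 CPM in dark SRDX. In hy5 ZEP had 498 and 567 CPM at 4 h and 53.8, 57.5 and 57.4 CPM in the dark. It rose in both genotypes, further in hy5, and the interaction was -1.14 ± 0.15, adjusted p = 1.4e-05. PSY (AT5G17230), phytoene synthase at the entry of the pathway, had 160 and 189 CPM in SRDX at 4 h against 347 and 289.8 CPM in hy5 at 4 h (interaction -0.81 ± 0.16, adjusted p = 0.0014). For ZDS (AT3G04870), a carotene desaturase, the interaction was -0.7 ± 0.14. CLA1 (AT4G15560), which makes the deoxyxylulose phosphate that feeds plastid isoprenoids, had 325 and 311 CPM in SRDX at 4 h and 424 and 427 CPM in dark SRDX. In hy5 CLA1 had 610.3 and 531 CPM at 4 h and 373, 376 and 349 CPM in the dark, so it fell in SRDX and rose in hy5 (interaction -1.05 ± 0.19, adjusted p = 0.00059). Of 27 chlorophyll biosynthesis genes 5 were lower and 2 higher, where 5.74% and 4.34% of all genes were. The lower count was 3 by edgeR, 2 without SRDX 4 h library 1 or hy5 4 h library 1, and 3 without SRDX 4 h library 2, SRDX dark library 1, hy5 dark library 2 or hy5 dark library 3, and the higher count 1 by DESeq2, and 1 without SRDX 4 h library 2 or hy5 4 h library 1. CHLH (AT5G13630), a subunit of magnesium chelatase, had 1091 and 1237 CPM in SRDX at 4 h and 311 and 310.4 CPM in dark SRDX. In hy5 CHLH had 2367 and 2235 CPM at 4 h and 313, 265 and 271 CPM in the dark (interaction -1.12 ± 0.2, adjusted p = 0.0004). CAO (AT1G44446), which makes chlorophyll b, had 194 and 189 CPM in SRDX at 4 h against 305 and 278 CPM in hy5 at 4 h (interaction -0.78 ± 0.15, adjusted p = 0.0012). The higher members were PORA (AT5G54190; 1.56) and PORB (AT4G27440), light-dependent protochlorophyllide oxidoreductases that are abundant in etiolated seedlings. PORB had 222 and 264 CPM in SRDX at 4 h and 1634 and 1748 CPM in dark SRDX. In hy5 PORB had 102 and 116 CPM at 4 h and 2081, 1974 and 2163 CPM in the dark, falling in both genotypes but less so in SRDX, which at 4 h lay above hy5 (interaction 1.43 ± 0.27, adjusted p = 0.00079).

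Plastid gene regulators had 5 of 11 lower members, against 5.74% of all genes (3 by edgeR, 2 without SRDX 4 h library 1 or SRDX dark library 1, and 3 without hy5 4 h library 1 or hy5 dark library 3). They were CGA1, its paralogue GNC (-0.62), the sigma factors SIGC (-0.58) and SIGF (-0.53), and SIG1 (AT1G64860), a plastid sigma factor, at 117 and 141 CPM in SRDX at 4 h against 195 and 211 CPM in hy5 at 4 h (interaction -0.76 ± 0.16, adjusted p = 0.0021). Of 44 antenna and photosystem genes 4 were lower, a share near that of all genes, with a median of -0.23. Their summed level was 41886 to 42867 CPM in SRDX at 4 h, 10135 to 11649 CPM in dark SRDX, 52350.3 to 60693 CPM in hy5 at 4 h and 11802 to 13855 CPM in dark hy5. The lower count was 1 without SRDX 4 h library 1, SRDX dark library 1 or hy5 4 h library 1, and 2 without SRDX 4 h library 2 or hy5 dark library 1. Besides PSAN the lower members were LHCA3 (-0.66), PSBO2 (-0.81) and PSBP-1 (-0.59), of the photosystem I antenna and the oxygen-evolving complex. PSAN (AT5G64040), a photosystem I subunit, had 469.6 and 465 CPM in SRDX at 4 h and 118 and 122 CPM in dark SRDX. In hy5 PSAN had 755 and 526 CPM at 4 h and 77.1, 81 and 85.1 CPM in the dark (interaction -0.99 ± 0.25, adjusted p = 0.0092), and its call was lost without hy5 4 h library 1. In the carbon fixation list, of which DESeq2 called 5, 1 of 20 members, also near that share, CP12-2 (AT3G62410), a regulator of the Calvin cycle, was lower (-0.8 ± 0.25). The count was none without SRDX 4 h library 1, SRDX 4 h library 2, SRDX dark library 1, hy5 4 h library 1, hy5 dark library 1 or hy5 dark library 3, and 6 without hy5 4 h library 2. The CP12-2 call was lost without SRDX 4 h library 1, SRDX 4 h library 2, SRDX dark library 1, hy5 4 h library 1, hy5 dark library 1 or hy5 dark library 3.

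**Figure D4:**
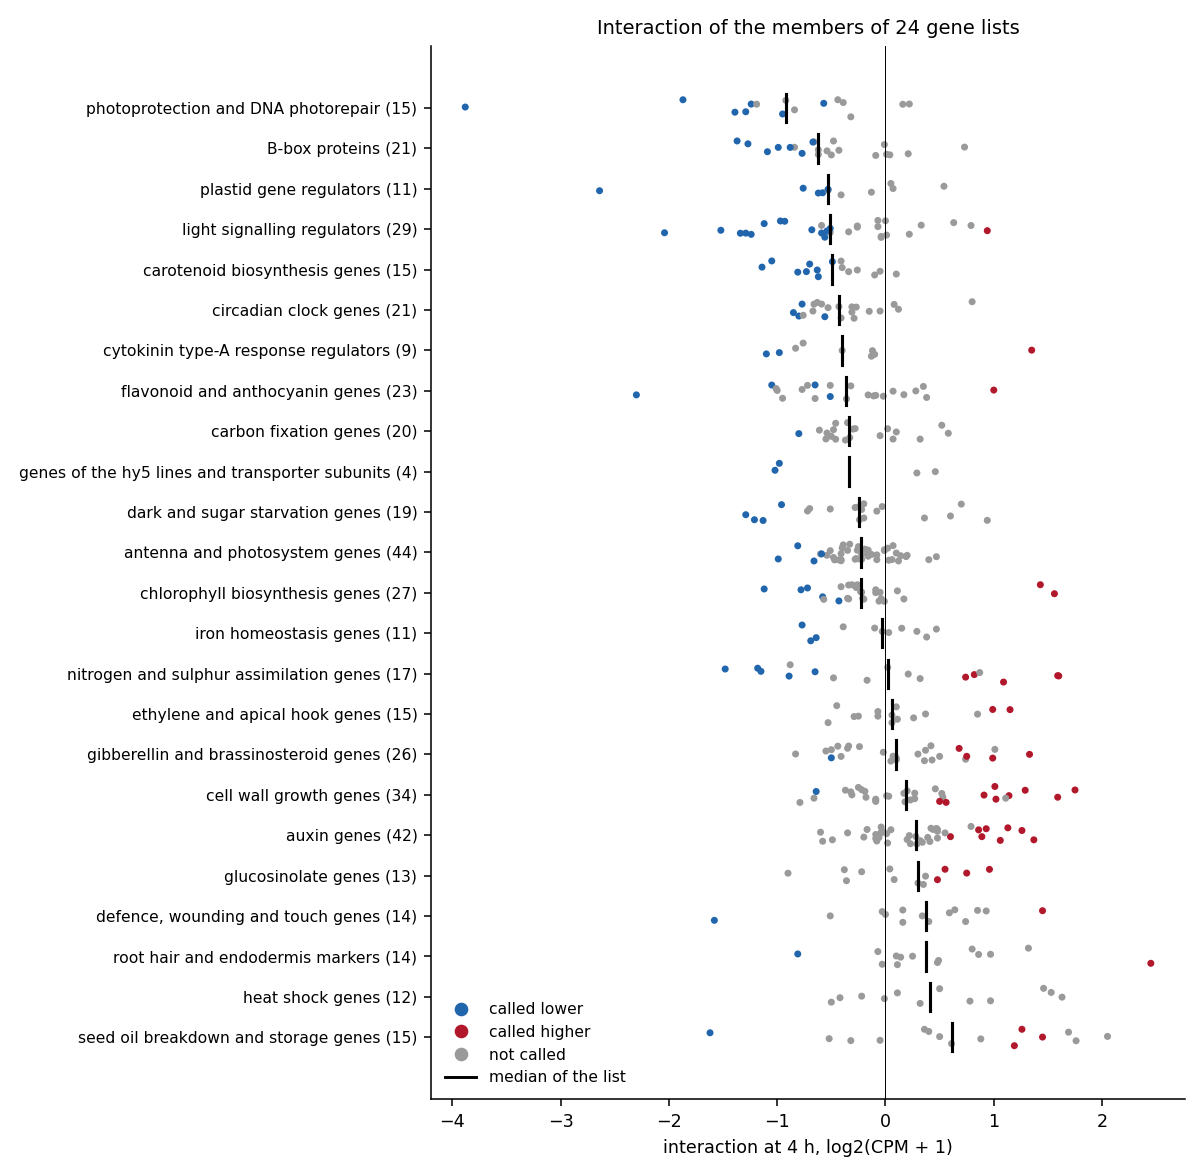
Interaction at 4 h in log2(CPM + 1) of every measured member of 24 gene lists, with called members in blue (lower) and red (higher), other members in grey and the list's median as a black bar, and the number measured in brackets. The medians run between -0.92 for photoprotection and DNA photorepair and 0.61 for seed oil breakdown and storage.

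Of the clock genes 4 of 21 were lower, against 5.74% of all genes (2 without SRDX 4 h library 2 or SRDX dark library 2). They were LHY, GI (-0.8), LNK1 (-0.85) and ZTL (-0.56), and without hy5 4 h library 2 there was also 1 higher member, as by edgeR and by DESeq2. LHY (AT1G01060), a morning MYB factor of the clock, had 69.9 and 71.7 CPM in SRDX at 4 h and 51.1 and 52 CPM in dark SRDX. In hy5 LHY had 213 and 178 CPM at 4 h and 97.1, 72.8 and 80.7 CPM in the dark, with SRDX below hy5 in the dark as well as at 4 h (interaction -0.77 ± 0.17, adjusted p = 0.0032). In a list of 4 genes of the hy5 lines and transporter subunits 2 were lower, against 5.74% of all genes. These were ABCI20 (AT5G02270) and ABCI21 (AT5G44110), subunits of an ABC transporter, which were lower also in each fit that left out a library. ABCI20 had 23 and 23.7 CPM in SRDX at 4 h and 8.62 and 9.24 CPM in dark SRDX. In hy5 ABCI20 had 72.7 and 59.1 CPM at 4 h and 12.3, 12.1 and 12.7 CPM in the dark (interaction -1.02 ± 0.15, adjusted p = 3.4e-05), and ABCI21 8.8 and 8.43 CPM in SRDX at 4 h against 17.5 and 24 CPM in hy5 at 4 h (interaction -0.98 ± 0.2, adjusted p = 0.0021). Nitrogen and sulphur assimilation genes split, with 5 of 17 higher, against 4.34% of all genes, and 5 lower, against 5.74%. The higher count was 2 without hy5 4 h library 2, and 3 without SRDX 4 h library 1, SRDX dark library 1 or hy5 dark library 3, and the lower count 2 without SRDX 4 h library 1 or SRDX dark library 1, and 3 without SRDX 4 h library 2, hy5 4 h library 1 or hy5 4 h library 2. The lower members were GLU1, GS2 (-0.65), ASN1 (-1.15), ASN2 (-0.89) and a nitrate transporter of the NRT2 family (-1.48), and the higher ones APR1 (1.09), APR2 (0.82), APR3, AT1G04770 and NRT1.1 (0.74). GLU1 (AT5G04140), the ferredoxin-dependent glutamate synthase, had 994 and 951 CPM in SRDX at 4 h and 488 and 494 CPM in dark SRDX. In hy5 GLU1 had 1951 and 1681 CPM at 4 h and 436, 434 and 347 CPM in the dark, rising further in hy5 (interaction -1.18 ± 0.21, adjusted p = 0.00043). APR3 (AT4G21990), an adenosine phosphosulphate reductase of sulphate assimilation, had 97.3 and 91.7 CPM in SRDX at 4 h and 28.7 and 42.8 CPM in dark SRDX. In hy5 APR3 had 81 and 62.5 CPM at 4 h and 79.6, 75 and 90.6 CPM in the dark. APR3 was lower in dark SRDX than in dark hy5 and no longer below it at 4 h (interaction 1.6 ± 0.26, adjusted p = 0.00017). AT1G04770, a tetratricopeptide protein of the list, moved like it, with 18.7 and 13.6 CPM in SRDX at 4 h and 6.7 and 9.35 CPM in dark SRDX. In hy5 AT1G04770 had 13.4 and 13.9 CPM at 4 h and 23, 19.3 and 25.3 CPM in the dark (interaction 1.59 ± 0.24, adjusted p = 6.3e-05). Of 19 dark and sugar starvation genes 4 were lower (2 without SRDX 4 h library 2, SRDX dark library 1, hy5 4 h library 2 or hy5 dark library 1), and without hy5 4 h library 2 there were also 4 higher ones. Over all genes 5.74% were lower and 4.34% higher. The lower members of this list were BCAT-2 (-1.29), AT1G21400 (-0.96), DIN9 (AT1G67070), a phosphomannose isomerase (-1.13 ± 0.19, adjusted p = 0.00021), and SIP2 (AT3G57520), a seed imbibition protein (-1.21 ± 0.28, adjusted p = 0.0055).

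At the other end stood AT1G14960, a member of the major latex protein family, with 37.6 and 37.4 CPM in SRDX at 4 h and 0.81 and 2.2 CPM in dark SRDX. In hy5 AT1G14960 had 0.571 and 0.48 CPM at 4 h and 0.614, 1.27 and 0.332 CPM in the dark. Light raised it in SRDX (4.0 ± 0.27, adjusted p = 6.9e-13), and both SRDX libraries at 4 h lay far above the other 7 (interaction 4.15 ± 0.36, adjusted p = 7.7e-09). MLP328 (AT2G01520), of the same family, had 21.2 and 18.1 CPM in SRDX at 4 h and 1.25 and 6.05 CPM in dark SRDX. In hy5 MLP328 had 0.428 and 0.275 CPM at 4 h and 0.921, 2 and 0.332 CPM in the dark (interaction 2.92 ± 0.53, adjusted p = 0.0006). The dark SRDX libraries lay far from each other, and both SRDX libraries at 4 h lay above all others. By DESeq2 its adjusted p was 0.063 and by edgeR 0.039. PEN3 (AT5G36150), a pentacyclic triterpene synthase, CYP716A2 (AT5G36140) and AT5G36130, both cytochrome P450 genes, are neighbours on chromosome 5 in the gene table and were nearly silent outside SRDX at 4 h. PEN3 had 11 and 11.7 CPM in SRDX at 4 h and 0.81 and 0.33 CPM in dark SRDX. In hy5 PEN3 had 0.143 and 0 CPM at 4 h and 0.0768, 0 and 0 CPM in the dark. CYP716A2 had 8.26 and 10.3 CPM in SRDX at 4 h and 0.295 and 0.11 CPM in dark SRDX. In hy5 CYP716A2 had 0 and 0.0686 CPM at 4 h and 0, 0 and 0 CPM in the dark. AT5G36130 had 7.86 and 9.02 CPM in SRDX at 4 h against 0 in all 5 hy5 libraries. Their interactions were 2.93 ± 0.22, 3.05 ± 0.2 and 3.02 ± 0.19 with 1 CPM added. The hy5 libraries held next to no reads of these genes, so a ratio of their light response is not defined, and edgeR and DESeq2 did not call them (adjusted p = 0.42, 0.91 and 1 by edgeR, 0.26 and 0.18 by DESeq2 for the first 2). The difference between SRDX and hy5 at 4 h itself was 3.53 ± 0.16, adjusted p = 4.3e-16 for PEN3.

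Wall proteins came next. AT4G38080 and AT2G22510, both annotated as hydroxyproline-rich glycoproteins, rose in SRDX (2.64 ± 0.4, adjusted p = 3.6e-06 for AT4G38080) and did not pass the test of change in hy5 (-0.07 ± 0.37, adjusted p = 0.89). AT4G38080 had 60.3 and 67.5 CPM in SRDX at 4 h and 12.7 and 6.93 CPM in dark SRDX. In hy5 AT4G38080 had 9.06 and 8.85 CPM at 4 h and 10.4, 9.18 and 8.95 CPM in the dark (interaction 2.71 ± 0.55, adjusted p = 0.0018). AT2G22510 had 44.1 and 52.7 CPM in SRDX at 4 h and 9.79 and 3.85 CPM in dark SRDX. In hy5 AT2G22510 had 4.21 and 6.31 CPM at 4 h and 5.3, 5.82 and 4.23 CPM in the dark (interaction 2.74 ± 0.6, adjusted p = 0.0036). For both genes every SRDX library at 4 h lay above every other library. AT5G35660, a glycine-rich protein, had 21 and 20.4 CPM in SRDX at 4 h against 0.785 and 1.37 CPM in hy5 at 4 h (3.24 ± 0.62), AT1G04560, an AWPM-19-like membrane protein, 76.4 and 53 CPM against 4.14 and 6.25 CPM (2.88 ± 0.66), and AT1G27461, which is uncharacterised, 10.2 and 8.63 CPM against 0.571 and 0.961 CPM (2.34 ± 0.4). Neither edgeR (adjusted p = 0.12, 0.084 and 0.69) nor DESeq2 (adjusted p = 0.11, 0.095 and 0.55) called these 3. AT5G40000, annotated as a nucleoside triphosphate hydrolase, and AT5G52710, as a copper transport protein, were at 13.1 and 20.6 CPM and 9.94 and 7.78 CPM in SRDX at 4 h, against 0.214 and 0 CPM and 0 and 0.0686 CPM in hy5 at 4 h. Both were also higher in dark SRDX than in dark hy5 (1.33 ± 0.18, adjusted p = 8.8e-06, and 0.88 ± 0.13, adjusted p = 2.9e-05). For AT5G52710 edgeR and DESeq2 gave an adjusted p of 0.81 and 0.53, and for AT5G40000 of 0.053 and 0.0036.

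Of 34 cell wall growth genes 9 were higher and 1 lower, where 4.34% and 5.74% of all genes were, 24 were not called and the median was 0.19. The higher count lay between 6 and 8 in the fits that left out a library. The median difference between SRDX and hy5 was -0.17 at 4 h and -0.17 in the dark. Their summed level was 6369.7 to 6414 CPM in SRDX at 4 h, 5886 to 6062 CPM in dark SRDX, 6585 to 7319 CPM in hy5 at 4 h and 6692 to 6788 CPM in dark hy5, lower in SRDX than in hy5 both in the dark and at 4 h. The named members are among the higher ones. XTH5 (AT5G13870), a xyloglucan endotransglucosylase, had 8.47 and 7.2 CPM in SRDX at 4 h and 13.2 and 16.8 CPM in dark SRDX. In hy5 XTH5 had 3.57 and 4.39 CPM at 4 h and 25, 26.5 and 26.7 CPM in the dark. Light lowered it in both genotypes, less so in SRDX, and the order of the genotypes turned round between dark and 4 h (interaction 1.59 ± 0.24, adjusted p = 6.5e-05). The expansins EXPA3 (AT2G37640) and EXPA11 (AT1G20190), which loosen walls, fell in hy5 and did not pass the test of change in SRDX. EXPA3 had 258 and 289 CPM in SRDX at 4 h and 259 and 277 CPM in dark SRDX. In hy5 EXPA3 had 156 and 182 CPM at 4 h and 322, 321 and 366 CPM in the dark (interaction 1.02 ± 0.15, adjusted p = 6.5e-05). EXPA11 had 142 and 171 CPM in SRDX at 4 h and 140.4 and 134 CPM in dark SRDX. In hy5 EXPA11 had 74.9 and 113 CPM at 4 h and 170.3, 181 and 186 CPM in the dark (interaction 1.14 ± 0.2, adjusted p = 0.00038). TUB1 (AT1G75780), a beta-tubulin that is known to be lowered by light, had 145 and 154 CPM in SRDX at 4 h and 186 and 171 CPM in dark SRDX. In hy5 TUB1 had 102 and 106 CPM at 4 h and 241, 233 and 226 CPM in the dark, with a smaller fall in SRDX (interaction 0.91 ± 0.12, adjusted p = 9.8e-06).

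Hormone lists with called members followed. Of 42 auxin genes 8 were higher, against 4.34% of all genes (median 0.28), but the count was 1 without SRDX 4 h library 1, and 2 without hy5 4 h library 2, and 3 without SRDX 4 h library 2 or SRDX dark library 2, and 5 without hy5 dark library 1 or hy5 dark library 3. Its members include IAA19 (1.13), IAA6 (0.89), IAA1 (0.86) and GH3.1 (1.26), early auxin response genes. GH3.2 (AT4G37390), an enzyme that conjugates auxin to amino acids, had 47 and 39.2 CPM in SRDX at 4 h and 37 and 34.2 CPM in dark SRDX. In hy5 GH3.2 had 10.6 and 12.9 CPM at 4 h and 19.4, 19.4 and 24.7 CPM in the dark, higher in SRDX both in the dark and at 4 h (interaction 1.06 ± 0.26, adjusted p = 0.008), and its call was lost without SRDX 4 h library 1. In the list of 26 gibberellin and brassinosteroid genes 4 were higher and 1 lower, against 4.34% and 5.74% of all genes, and the higher count was 1 without SRDX 4 h library 1, and 2 without SRDX 4 h library 2 or SRDX dark library 2, while the lower member was lost without SRDX 4 h library 2, SRDX dark library 1 or hy5 4 h library 2. The higher members include GA20OX1 (1.33) and GA3OX1 (0.99), enzymes of gibberellin synthesis, and GASA1 (0.68), and the lower one was ROT3 (-0.5). BAS1 (AT2G26710), which inactivates brassinosteroids, had 31.4 and 27 CPM in SRDX at 4 h against 18.8 and 14.2 CPM in hy5 at 4 h (interaction 0.75 ± 0.18, adjusted p = 0.0078), and was no longer called without SRDX 4 h library 1, SRDX dark library 2 or hy5 4 h library 2. Of 15 ethylene and apical hook genes 2 were higher (1 without SRDX 4 h library 1, SRDX dark library 2, hy5 4 h library 1 or hy5 dark library 3), HLS1, which keeps the apical hook closed (0.99), and ETR2. Over all genes 4.34% were higher and 5.74% lower, and by edgeR and by DESeq2 1 member of this list was also lower. ETR2 (AT3G23150), an ethylene receptor, had 9.61 and 10.6 CPM in SRDX at 4 h and 29.7 and 32.3 CPM in dark SRDX. In hy5 ETR2 had 5 and 4.39 CPM at 4 h and 35.3, 33.7 and 36.7 CPM in the dark, a fall in both genotypes that was smaller in SRDX (interaction 1.15 ± 0.25, adjusted p = 0.0038). Among 9 type-A response regulators of cytokinin signalling 1 was higher and 2 were lower, and the lower count was 1 by edgeR, 1 by DESeq2, and 1 without SRDX 4 h library 1, SRDX dark library 1, SRDX dark library 2, hy5 4 h library 1, hy5 dark library 1, hy5 dark library 2 or hy5 dark library 3. These counts stand against 4.34% higher and 5.74% lower of all genes, and the lower members were ARR15 (-1.1) and ARR9. ARR3 (AT1G59940) had 4.3 and 3.18 CPM in SRDX at 4 h and 1.4 and 1.32 CPM in dark SRDX. In hy5 ARR3 had 1.28 and 1.92 CPM at 4 h and 2.07, 2.45 and 2.4 CPM in the dark (interaction 1.35 ± 0.32, adjusted p = 0.0061). ARR9 (AT3G57040) had 30.1 and 34.3 CPM in SRDX at 4 h and 22.4 and 22.1 CPM in dark SRDX. In hy5 ARR9 had 60.8 and 48 CPM at 4 h and 18.4, 18.3 and 19.3 CPM in the dark (interaction -0.98 ± 0.18, adjusted p = 0.0006).

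**Figure D5:**
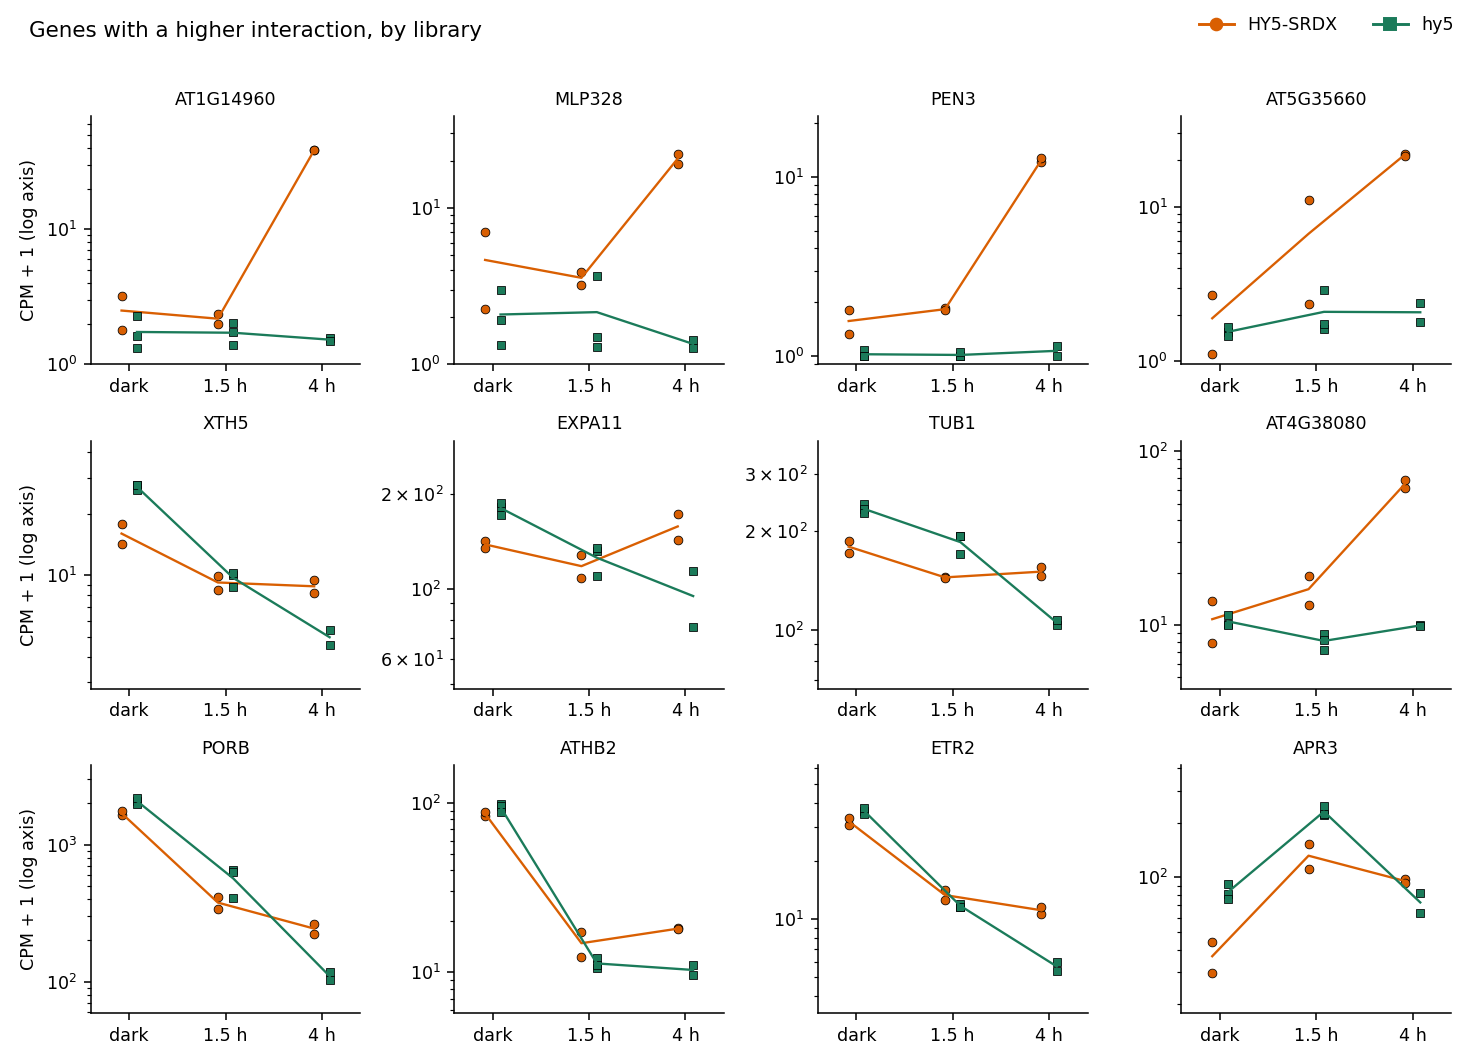
CPM + 1 on a log axis in each library, dark first and then 1.5 h and 4 h of light, for 12 genes with a higher interaction, in SRDX (orange circles) and hy5 (green squares), with lines through the means. AT1G14960, MLP328 and PEN3 are highest in the SRDX libraries at 4 h, while PORB, ATHB2 and ETR2 fall in both genotypes and end higher in SRDX, as for PORB at 222 and 264 CPM in SRDX and 102 and 116 CPM in hy5 at 4 h.

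The interaction was set against the differences between genotypes at each end. In the dark 1022 genes (5.19%) were higher and 889 (4.52%) lower in SRDX than in hy5, together 9.71% of genes. At 4 h 1623 (8.24%) were higher and 1900 (9.65%) lower, together 17.9%. The dark count was 732 without SRDX dark library 2 and 1189 without hy5 dark library 3, and the count at 4 h was 2305 without SRDX 4 h library 1 and 2074 without SRDX 4 h library 2. For the genes with a lower interaction, the median difference between SRDX and hy5 was -0.52 at 4 h and 0.19 in the dark, and for those with a higher one 0.62 at 4 h and -0.27 in the dark. These values share all of their libraries with the interaction and describe it. Light raised 4540 genes and lowered 4636 in SRDX, together 46.6%. In hy5 it raised 4831 and lowered 5171, together 50.8%.

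The libraries at 1.5 h place the interaction in time. At 1.5 h, in a comparison added after the data were seen, the same interaction gave 23 higher (0.117%) and 2 lower (0.0102%) genes, together 0.127%. These 25 calls were 14 without SRDX 1.5 h library 1, and 2 by edgeR and 16 by DESeq2. The interaction at 4 h minus that at 1.5 h was higher for 334 genes (1.7%) and lower for 438 (2.23%), together 3.92%. That count was 329 without SRDX 1.5 h library 1, 395 without SRDX 1.5 h library 2, 342 without SRDX 4 h library 1, 380 without SRDX 4 h library 2 and 480 without hy5 1.5 h library 2. The 4 h and 1.5 h interactions share their dark libraries, which cancel in this difference. For the genes called lower and higher at 4 h, the median interaction at 1.5 h was -0.2 and 0.24, signs that the shared dark libraries favour. Already called at 1.5 h were BGLU6 (-1.06 ± 0.23, adjusted p = 0.049), AT5G40000 (1.27 ± 0.26, adjusted p = 0.031) and AT5G52710 (1.68 ± 0.19, adjusted p = 2.8e-06). ELIP1 had 16.1 and 1.73 CPM in SRDX at 1.5 h and 5.59, 6.95 and 6.13 CPM in hy5 at 1.5 h, so the SRDX pair straddled the hy5 libraries there, and the interaction then changed by -4.61 ± 0.58, adjusted p = 7.6e-06. GulLO2 changed by -2.2 ± 0.24, adjusted p = 5e-07, and AT3G28160 by -2.48 ± 0.33, adjusted p = 1.8e-05. AT1G14960, with 1 and 1.36 CPM in SRDX at 1.5 h and 1.02, 0.734 and 0.395 CPM in hy5 at 1.5 h, was near its dark level then and changed by 4.3 ± 0.36, adjusted p = 6.7e-09. PEN3 changed by 2.68 ± 0.22, adjusted p = 4.5e-09, MLP328 by 3.05 ± 0.53, adjusted p = 0.00079, AT5G22470, a poly(ADP-ribose) polymerase, by 2.74 ± 0.46, adjusted p = 0.00053, and AT3G15670, a late embryogenesis abundant protein, by 3.02 ± 0.85, adjusted p = 0.041. The interaction of AT3G15670 at 4 h was not called (1.76 ± 0.85, adjusted p = 0.19), and that of AT5G22470 (2.19 ± 0.46, adjusted p = 0.0027) was called by neither edgeR (adjusted p = 0.19) nor DESeq2 (adjusted p = 0.22). SPA1 had 162 and 171 CPM in SRDX at 1.5 h and 185, 176 and 187 CPM in hy5 at 1.5 h, against 111 and 105 CPM in SRDX and 237 and 225 CPM in hy5 at 4 h (change -0.96 ± 0.19, adjusted p = 0.0033). Apart from these, TAT3 (AT2G24850), a tyrosine aminotransferase known as a jasmonate marker, and FAMT (AT3G44860), a methyltransferase, were seen almost only in SRDX at 1.5 h. TAT3 had 16.5 and 7.8 CPM and FAMT 6.03 and 4.64 CPM there, against 0.672 and 0.519 CPM and 0 and 0.0649 CPM in SRDX at 4 h, and the interactions changed by -2.96 ± 0.26, adjusted p = 1.7e-08 and -2.58 ± 0.21, adjusted p = 4.5e-09. Neither was called in the interaction at 4 h (0.64 ± 0.26, adjusted p = 0.12 and -0.01 ± 0.21, adjusted p = 0.99).

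Lists for stage, other tissues and handling were read as well, and how they relate to the other results was not tested. Of 15 seed oil breakdown and storage genes 3 were higher and 1 lower, where 4.34% and 5.74% of all genes were. The higher count was 1 without SRDX 4 h library 2, SRDX dark library 2 or hy5 4 h library 1, and 5 without hy5 4 h library 2, and the lower count none without hy5 4 h library 2, and 3 without hy5 4 h library 1. The higher members were MLS (1.45) and ICL (1.26), both of the glyoxylate cycle, and OLEO3 (1.19), an oil body protein. Their summed level was 4311 to 5850 CPM in SRDX at 4 h, 9857 to 11155 CPM in dark SRDX, 1684 to 3422 CPM in hy5 at 4 h and 8756 to 9615 CPM in dark hy5, so it was lower at 4 h in both genotypes and higher in SRDX than in hy5 there. The hy5 library at 4 h with the lower sum was also the one farther along the first principal component. CRU3 (AT4G28520), a cruciferin storage protein, was the lower member, at 4.57 and 3.96 CPM in SRDX at 4 h, 8.84 and 8.58 CPM in dark SRDX, 0.428 and 2.26 CPM in hy5 at 4 h and 0.461, 0.273 and 0.166 CPM in dark hy5 (-1.62 ± 0.39, adjusted p = 0.0069), a call lost without hy5 4 h library 2. Whether fewer cells of a kind or less RNA per cell lies behind a level cannot be told apart in whole seedlings, and the part of seedling stage in the interaction was not tested. Of 14 root hair and endodermis markers 1, HRGP1 (2.45), was higher (3 by edgeR and by DESeq2, none without SRDX 4 h library 1, SRDX 4 h library 2, SRDX dark library 2, hy5 4 h library 2, hy5 dark library 1, hy5 dark library 2 or hy5 dark library 3), and 1, MYB36 (AT5G57620), an endodermis regulator, was lower (-0.81 ± 0.19, adjusted p = 0.0055). The counts of 1 higher and 1 lower are near the shares of all genes, 4.34% and 5.74%. The summed level of the root hair and endodermis list was 422 to 425 CPM in SRDX at 4 h, 433 to 459 CPM in dark SRDX, 441 to 489.8 CPM in hy5 at 4 h and 553 to 618 CPM in dark hy5.

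Of 14 defence, wounding and touch genes 1 was higher and 1 lower, where 4.34% and 5.74% of all genes were. The higher count was 2 by edgeR, 3 by DESeq2, none without SRDX 4 h library 2, SRDX dark library 2, hy5 4 h library 1 or hy5 dark library 3, and 2 without SRDX dark library 1, and 3 without hy5 4 h library 2, and the higher member was STZ, a zinc finger protein of stress responses (1.45). The lower member, VSP2 (AT5G24770), a storage and defence protein, was lost without SRDX 4 h library 2, SRDX dark library 2 or hy5 4 h library 1 (-1.58 ± 0.42, adjusted p = 0.015). Of 13 glucosinolate genes 4 were higher (none without SRDX 4 h library 2, SRDX dark library 1 or hy5 4 h library 2, and 2 without SRDX 4 h library 1, SRDX dark library 2, hy5 dark library 1 or hy5 dark library 2), and 1 was lower without SRDX dark library 2, and likewise 1 by edgeR and 1 by DESeq2. Over all genes 4.34% were higher and 5.74% lower. Besides CYP79B3 the higher members of this list were CYP83B1 (0.55), SOT16 (0.48) and MYB51 (0.75). CYP79B3 (AT2G22330), an entry enzyme of indole glucosinolates, had 56 and 61.8 CPM in SRDX at 4 h and 84.8 and 98.3 CPM in dark SRDX. In hy5 CYP79B3 had 19.3 and 15.7 CPM at 4 h and 55.6, 52.8 and 54.4 CPM in the dark (interaction 0.96 ± 0.26, adjusted p = 0.016), and lost its call without SRDX 4 h library 2, SRDX dark library 1 or hy5 4 h library 2. Of 11 iron homeostasis genes 3 were lower, against 5.74% of all genes, and DESeq2 called 2. Fewer were lower when any library but hy5 dark library 1 or hy5 dark library 3 was left out. The lower members were BTS (-0.64), PYE (-0.77) and ORG1 (AT5G53450), the last at -0.69 ± 0.15, adjusted p = 0.0028. limma called no member of the 12 heat shock genes, of which 3 had an unadjusted p below 0.05 and edgeR and DESeq2 called 1 each, and limma called 2 without SRDX dark library 1, 3 without hy5 4 h library 2 and 1 without hy5 dark library 1. The one with the smallest p, HSP17.4 (AT3G46230), had 16.5 and 15.7 CPM in SRDX at 4 h and 23.9 and 9.68 CPM in dark SRDX. In hy5 HSP17.4 had 5.21 and 13 CPM at 4 h and 22.4, 22.2 and 37.5 CPM in the dark (1.63 ± 0.55, adjusted p = 0.058).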

How the data were processed

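Polyadenylated, stranded RNA of whole seedlings was sequenced in 32 libraries of 12 groups, of which 9 libraries of 4 groups enter the interaction and 5 more the comparison with 1.5 h. The submitters' processing notes name edgeR 3.16.5, HTSeq 0.6.0, TopHat2 2.0.11 and the TAIR10 build, among other tools, and their roles are not given in the sources used here. The deposited values are a signal per gene in CPM, scaled by the authors to a library size other than the column total, since the column totals differ from the total that plain CPM would give. In the 14 libraries used here 100% of the values were whole reads within 0.01 of a read, so reads were recovered for the count tests. Log2 ratios in the authors' deposited table were used for a comparison of signs.

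log2(CPM + 1) was fitted with limma 3.58.1 (R 4.3.3), with 1 mean per group over all 32 libraries and a trend in the prior variance, so that the spread is pooled over all groups. Benjamini-Hochberg adjustment ran over 19685 genes, and a gene was called below an adjusted p of 0.05. The alternatives were a pseudocount of 0.25, a minimum mean of 5 CPM, a fold of at least 2, a fit to the groups compared, median-of-ratios scaling, edgeR 4.0.16 and DESeq2 1.42.0 on the recovered reads of 14 libraries, a replicate block, and the omission of each library. The fits were tested on simulated data.

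Named were HY5, HYH, the 12 highest and 12 lowest called interactions that were also called in each of 9 fits without 1 library and reached a group mean of 5 CPM, up to 4 such members of each of 24 gene lists by adjusted p (otherwise the called member of smallest p), called light signalling and B-box genes, and the 5 highest and 5 lowest called changes between 1.5 h and 4 h. The members and lists were chosen with earlier results of these data known. Gene names came from the RefSeq gene table, which holds 19582 of the 19685 identifiers.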

Additional observations from a re-analysis of the deposited data

Results flagged for a closer look

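The interaction is itself a test of a difference between genotypes in the response to light, so each called value stands out by that test. It was called for 1983 genes at 4 h, and its change between 1.5 h and 4 h for 772. The named genes follow with their interaction at 4 h on the log2(CPM + 1) scale. Of the 82 that limma called, 15 were called by neither edgeR nor DESeq2, and they are not marked in what follows. Lower interactions were those of ELIP1 (-3.88), BGLU6 (-2.78), CGA1 (-2.64), CYP82C2 (-2.63), GulLO2 (-2.38), F3H (-2.3), scpl10 (-2.27), SQP1 (-2.23), AT3G28160 (-2.2), THA1 (-2.19), ADPG2 (-2.13), AT2G34810 (-2.12), HY5 (-2.04) and GPX7 (-1.87). Below these in size came CRU3 (-1.62), VSP2 (-1.58), PKS1 (-1.52), SIG5 (-1.39), BBX16 (-1.37), SPA1 (-1.34), RUP1 (-1.29), UVR3 (-1.29), BBX31 (-1.27), HFR1 (-1.24), SIP2 (-1.21), GLU1 (-1.18), ZEP (-1.14) and DIN9 (-1.13). Further lower genes were CHLH (-1.12), HYH (-1.12), BBX32 (-1.09), CLA1 (-1.05), ABCI20 (-1.02), BBX18 (-0.99), PSAN (-0.99), ABCI21 (-0.98), ARR9 (-0.98), SPA4 (-0.97), SPA3 (-0.93), BBX22 (-0.88), MYB36 (-0.81) and PSY (-0.81). The remaining lower genes were CP12-2 (-0.8), CAO (-0.78), BBX14 (-0.77), LHY (-0.77), SIG1 (-0.76), ZDS (-0.7), ORG1 (-0.69), COP1 (-0.68), BBX15 (-0.67), PAL1 (-0.65), SPA2 (-0.59), FHY3 (-0.56), CRY1 (-0.54) and PHYB (-0.51). Higher interactions were those of AT1G14960 (4.15), AT5G35660 (3.24), CYP716A2 (3.05), AT5G36130 (3.02), PEN3 (2.93), MLP328 (2.92), AT1G04560 (2.88), AT2G22510 (2.74), AT4G38080 (2.71), AT5G40000 (2.66), AT5G52710 (2.36), AT1G27461 (2.34), AT5G22470 (2.19) and APR3 (1.6). The remaining higher genes were XTH5 (1.59), AT1G04770 (1.59), PORB (1.43), ARR3 (1.35), ETR2 (1.15), EXPA11 (1.14), GH3.2 (1.06), EXPA3 (1.02), CYP79B3 (0.96), ATHB2 (0.94), TUB1 (0.91) and BAS1 (0.75).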

How the results depend on the processing

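With a fold of at least 2 the calls numbered 662 for the interaction at 4 h, 2507 for light in SRDX, 2868 for light in hy5, 354 between genotypes in the dark, 894 at 4 h and 319 for the change between 1.5 h and 4 h. A fit to the compared groups alone gave 2062 calls between genotypes at 4 h. The 25 calls at 1.5 h became 11 with a pseudocount of 0.25, 3 with a mean of at least 5 CPM, 14 with the compared groups alone, 2 by edgeR and 16 by DESeq2. The cause was not tested, beyond fewer genes or samples entering some of these fits.

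The interaction at 4 h stayed within 1.5 times 1983 under the other alternatives, with 1793 calls at a pseudocount of 0.25, 1775 at a mean of at least 5 CPM, 1449 with its own groups, 1996 with median-of-ratios scaling, 1967 by edgeR and 2093 by DESeq2. Without 1 library, calls ranged between 1171 and 1774 for the interaction, 7172 and 7769 for light in SRDX, 7432 and 9422 for light in hy5, 732 and 1678 between genotypes in the dark, 2074 and 2973 at 4 h, 329 and 694 for the change, and 14 and 31 at 1.5 h. Where SRDX or hy5 is left with 1 library, that library is assumed to vary like the other groups.

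Replicate numbers are shared across groups, but the labels tie them to no batch, and same-numbered libraries deviated together with correlations between -0.179 and 0.279. With the replicate block the calls were 2043 for the interaction, 9271 for light in SRDX, 9977 for light in hy5, 1921 in the dark, 3689 at 4 h, 776 for the change and 28 at 1.5 h. Of 86 named genes, 82 were called, and of these edgeR did not call 20 and DESeq2 16, while 15 were called by neither. Levels near 1 read, 0.0649 to 0.110 CPM, limit the ratios of genes that were close to silent in the dark.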

Other observations

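Gene families were gathered by their RefSeq product names after the values had been seen, so the counts describe and test nothing. FtsH proteases sit in membranes of plastids and mitochondria, and those of the thylakoid, such as FTSH1, FTSH8, VAR1 and VAR2, take part in the repair of photosystem II, while ftsh3 and ftsh4 are mitochondrial. Of 14 measured, 8 had a lower interaction, against 5.74% of all genes, and 6 to 8 did so in the fits that left out a library. FTSH1 (AT1G50250), a thylakoid subunit, had 58.4 and 66 CPM in SRDX at 4 h and 62.8 and 61.7 CPM in dark SRDX. In hy5 FTSH1 had 181 and 186 CPM at 4 h and 55.2, 54 and 57.9 CPM in the dark. Both SRDX libraries at 4 h lay below both hy5 libraries at 4 h, and the interaction was -1.7 ± 0.14, adjusted p = 1.4e-09. The other called members were VAR1 (-1.69), FTSH8 (-1.5), VAR2 (-1.18), ftsh9 (-0.88), FTSH11 (-0.61), ftsh3 (-0.51) and ftsh4 (-0.39).

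Of 18 oxidases of the berberine family, 8 had a lower interaction, against 5.74% of all genes, and 8 to 10 did so in the fits that left out a library. AT4G20860 had 39.1 and 33 CPM in SRDX at 4 h and 50.2 and 57 CPM in dark SRDX. In hy5 AT4G20860 had 88.6 and 97.3 CPM at 4 h and 46.1, 58.7 and 57.4 CPM in the dark (interaction -1.34 ± 0.27, adjusted p = 0.0017). AT1G26380 had 8.8 and 10.2 CPM in SRDX at 4 h and 25 and 26.1 CPM in dark SRDX. In hy5 AT1G26380 had 0.856 and 0.755 CPM at 4 h and 0.23, 0.545 and 0.497 CPM in the dark (interaction -1.69 ± 0.26, adjusted p = 0.0001). The family's median change between dark and 4 h was -0.51 in SRDX and 0.03 in hy5.

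Of 213 pentatricopeptide repeat proteins, which act on RNA in organelles, 16 were lower, a share near the 5.74% of all genes. Their median interaction was -0.12. Fewer were lower in every fit that left out a library, except that without hy5 dark library 1, and 9 were lower without hy5 dark library 3. The other families had more called members on the higher side, where 4.34% of all genes were higher, and 0 to 4 lower ones in each fit that left out a library. Of 308 genes with ribosomal protein in their product name, 47 were higher, with a median of 0.38. The count was 72 by edgeR and 73 by DESeq2, and 10 without SRDX 4 h library 2, and 22 without SRDX dark library 1, and 24 without hy5 dark library 3, and 26 without hy5 4 h library 1. Of 22 tubulins 8 were higher, and the count was 3 without SRDX 4 h library 1 or hy5 4 h library 2, and 4 without hy5 dark library 3. TUB2 and TUB3, 2 of the 8, are close copies whose reads may be split uncertainly. Of 64 late embryogenesis abundant proteins 13 were higher, and the count was 8 by edgeR, 5 by DESeq2, and 5 without SRDX 4 h library 1, SRDX dark library 2 or hy5 dark library 1, and 6 without SRDX 4 h library 2 or hy5 4 h library 1, and 7 without hy5 dark library 3. Of 62 SAUR-like proteins, a family of early auxin responses, 10 were higher, and the count was 5 without SRDX 4 h library 1, SRDX 4 h library 2 or SRDX dark library 2. SAUR9 had 17.1 and 14.2 CPM in SRDX at 4 h and 11.3 and 8.25 CPM in dark SRDX. In hy5 SAUR9 had 4 and 2.88 CPM at 4 h and 14.1, 11.7 and 12.2 CPM in the dark (interaction 2.26 ± 0.27, adjusted p = 1.4e-06). Of 43 bifunctional inhibitor and lipid-transfer proteins 10 were higher, and 7 to 11 were so in the fits that left out a library. Of 41 pectin methylesterase inhibitors 8 were higher, and the count was 4 without SRDX 4 h library 2, and 5 without SRDX 4 h library 1. Of 20 proline-rich extensin-like proteins 6 were higher, and the count was 1 without SRDX dark library 2, and 2 without SRDX 4 h library 1 or hy5 dark library 1, and 3 without SRDX 4 h library 2 or hy5 4 h library 2.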
